A study of Mus musculus with 441 samples.

Results

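Transcripts of 10 genes that antigen receptor signalling induces were followed in single T cells sorted from mouse pancreatic islets. The genes were the nuclear receptors Nr4a1, Nr4a2 and Nr4a3, the zinc finger factors Egr1, Egr2 and Egr3, the surface protein gene Cd69, the GTPase activator gene Tagap, and the NF-kB inhibitors Nfkbia and Tnfaip3. They were chosen by name as a receptor response list, with earlier results of these data known. All 10 were among the 13561 genes of the expression table. The 441 cells were taken from collagenase-digested islets with a HIP or an Ins tetramer, an MHC class II reagent that binds matching receptors, and read by full-length SMART-Seq2. The labels spell out neither abbreviation and give no strain, genotype, age, sex or animal. The HIP sort held 184 cells, annotated as 111 T follicular helper cells, 3 Tregs, 61 cells of cluster 2 (activated CD4 T cells by annotation) and 9 dividing cells. The Ins sort held 257 cells, annotated as 61 T follicular helper cells, 115 Tregs, 25 cells of cluster 2, 35 dividing cells and 21 cells of cluster 4, called B cells. Because no animal is named, each sort counted as 1 sample. No test was possible between sorts, and intervals below are exact Clopper-Pearson 95% intervals that cover counting error only.

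At least 1 of the fixed T cell markers (Cd3e, Cd3d, Cd4) was found in 95.1% to 100% of cells in every group of clusters 0 to 3, and in 9.52% of cluster 4. At least 1 B cell marker was found in 100% of cluster 4 and in at most 4.92% of cells of any T cell group. In cluster 4 the antibody-secreting cell markers summed to a mean of 131397 TPM per cell, most of it Igj (126553 TPM), beside 2096 TPM for the B cell markers. The myeloid marker Fcer1g was found in 95.2% of its cells, while Lyz2 and Itgam were at 0. Genes detected per cell had medians of 1951 and 1963 in the HIP and Ins follicular helper classes, 2017 in Ins Tregs, 2075 and 1862 in cluster 2, and 3992 and 3610 in the dividing class. Read depth is not kept in TPM, so a value of 0 may be a missed transcript.

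When a T cell receptor binds peptide and MHC, calcium, MAP kinase and protein kinase C pathways are switched on within minutes. NFAT, serum response factor and NF-kB then start transcription of early genes without new protein synthesis. NR4A and EGR genes are among the first of these, and Nr4a1, which encodes Nur77, is widely used as a reporter of recent receptor signalling. EGR2 and EGR3 also take part in T cell anergy and in restraint of activation. CD69 appears on the surface early and holds cells in tissue by opposing S1PR1. Nfkbia encodes IkB alpha, which binds NF-kB and keeps it out of the nucleus, and Tnfaip3 encodes A20, a ubiquitin-editing enzyme that limits signals to NF-kB. Both are NF-kB targets that form negative feedback loops.

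Upstream sequences show the letters that several of these genes share before their start sites. The table of RefSeq promoter windows (GRCm38.p6) held 7 of the 10 genes: Nr4a1, Nr4a2, Nr4a3, Egr2, Tagap, Nfkbia and Tnfaip3. The 250 bases before the start are shown 5′ to 3′ for the NR4A genes first, because the 3 windows shared 1 motif. Capitals mark TGACG, the core of the cyclic AMP response element, on either strand (CGTCA on the other strand).
Nr4a1 (chr15:101266596-101266845, plus strand): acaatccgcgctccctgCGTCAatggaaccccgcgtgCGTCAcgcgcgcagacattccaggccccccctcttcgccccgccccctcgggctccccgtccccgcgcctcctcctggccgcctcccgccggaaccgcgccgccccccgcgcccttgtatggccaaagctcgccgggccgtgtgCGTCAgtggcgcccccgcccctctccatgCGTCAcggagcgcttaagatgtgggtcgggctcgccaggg
Nr4a2 (chr2:57124004-57124253, minus strand): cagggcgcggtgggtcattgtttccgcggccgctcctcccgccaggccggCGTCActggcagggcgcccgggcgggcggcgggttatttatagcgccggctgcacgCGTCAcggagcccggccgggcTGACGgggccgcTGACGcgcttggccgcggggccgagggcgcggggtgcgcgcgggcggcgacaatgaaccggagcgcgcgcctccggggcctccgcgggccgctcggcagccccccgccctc
Nr4a3 (chr4:48045055-48045304, plus strand): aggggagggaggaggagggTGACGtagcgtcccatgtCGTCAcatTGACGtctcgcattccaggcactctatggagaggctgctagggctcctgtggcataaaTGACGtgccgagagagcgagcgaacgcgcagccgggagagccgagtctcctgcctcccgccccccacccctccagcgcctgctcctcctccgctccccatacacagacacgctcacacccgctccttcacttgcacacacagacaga
Each of the 3 windows held TGACG at 4 places. Of all 32851 windows of 300 bases, 20.8% held it at least once, and the share with 4 places was not counted. These letters were also in the Tnfaip3 window shown next and in 3 of 5 Egr2 windows, so 5 of the 7 genes had them. The EGR motif GCGNGGGCG was in the windows of Nr4a1, Nr4a2 and Tagap and in 5.55% of all windows. The NF-kB feedback genes are shown next, with the kB motif (GGG, then 2 bases of any kind, then TTTCC) on either strand in capitals.
Nfkbia (chr12:55492648-55492897, minus strand): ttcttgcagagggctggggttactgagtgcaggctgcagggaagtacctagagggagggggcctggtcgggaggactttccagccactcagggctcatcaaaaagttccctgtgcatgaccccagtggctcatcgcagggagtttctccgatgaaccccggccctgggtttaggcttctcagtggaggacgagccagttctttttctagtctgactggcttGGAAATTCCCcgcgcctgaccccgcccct
Tnfaip3 (chr10:19015411-19015660, minus strand): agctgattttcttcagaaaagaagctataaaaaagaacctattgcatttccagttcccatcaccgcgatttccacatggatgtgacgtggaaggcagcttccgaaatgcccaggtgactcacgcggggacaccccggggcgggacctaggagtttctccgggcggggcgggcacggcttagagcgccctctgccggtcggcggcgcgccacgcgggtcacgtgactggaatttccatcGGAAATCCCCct
This motif was in 1.63% of all windows. It began 29 bases before the Nfkbia start and 12 bases before this Tnfaip3 start, on the minus strand of each promoter as printed. The other Tnfaip3 window, chr10:19011964-19012213, did not hold these letters. For Egr2, 1 of 5 windows is shown, with the CArG box of the serum response element in capitals.
Egr2 (chr10:67537620-67537869, plus strand): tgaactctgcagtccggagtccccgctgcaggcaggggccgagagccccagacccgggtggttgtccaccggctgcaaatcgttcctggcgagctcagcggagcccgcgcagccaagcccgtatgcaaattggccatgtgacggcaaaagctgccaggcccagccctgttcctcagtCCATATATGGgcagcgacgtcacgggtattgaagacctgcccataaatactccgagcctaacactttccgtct
The CArG box was in 4 of the 5 Egr2 windows, which overlap in part, and in 1.63% of all windows. The NFAT core GGAAA, whose letters overlap the kB motifs of Nfkbia and Tnfaip3, was in 61.3% of all windows. These are matches of letters only, and binding was not measured.

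Among the 420 cells of the T cell classes, Nfkbia was the most often detected of the 10 genes and Egr3 the least. A gene counted as detected at 1 TPM (transcripts of a gene, scaled to the same total in every cell) or more. Nfkbia was found in 263 cells (62.6%, interval 57.8% to 67.3%) and Tnfaip3 in 116 (27.6%, 23.4% to 32.2%). Next came 4 genes at nearly equal shares: Egr1 and Tagap in 74 cells each (17.6%), Cd69 in 73 (17.4%) and Nr4a1 in 71 (16.9%), with overlapping intervals. Egr2 was found in 44 cells (10.5%, 7.72% to 13.8%), Nr4a3 in 16 (3.81%), Nr4a2 in 9 (2.14%) and Egr3 in 3 (0.714%). In cells that held them, levels were high: of the values above 0 for the 10 genes over all 441 cells, 802 in number, 14 lay under 1 TPM.

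**Figure D1:**
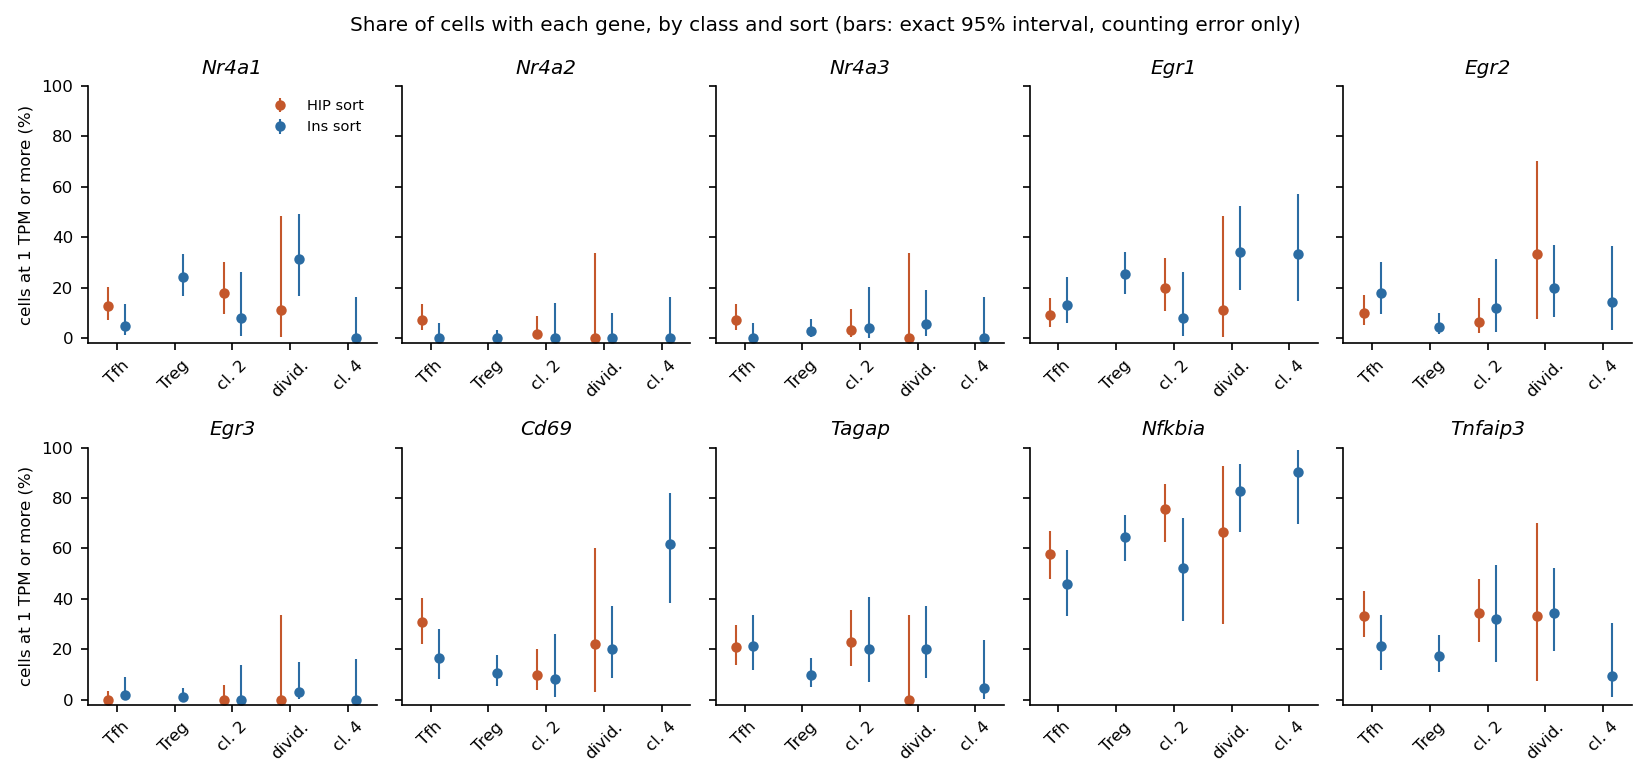
Share of cells at 1 TPM or more for each of the 10 genes (y axis, percent) by class (x axis: Tfh, follicular helper class; cl., cluster), with HIP in orange and Ins in blue and exact 95% intervals as bars. The 3 HIP Tregs are not plotted. Nfkbia reaches 45.9% to 90.5% of cells in the plotted groups, while Nr4a2, Nr4a3 and Egr3 reach 7.21% at most.

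NR4A transcripts were found in more HIP than Ins follicular helper cells, and in Ins they lay mostly in Tregs and dividing cells. Nr4a1 (chromosome 15, 101253902 to 101274795, mm10) ranged from 0 to 2415 TPM with a median of 0 in HIP follicular helper cells, where 14 of 111 held it (12.6%, 7.07% to 20.3%). In Ins follicular helper cells it ranged from 0 to 579.9 TPM, with 3 of 61 cells positive (4.92%, 1.03% to 13.7%). The ranges of the 2 sorts overlapped, and so did the intervals of their shares. In the Ins sort, 28 of 115 Tregs (24.3%, 16.8% to 33.2%) and 11 of 35 dividing cells (31.4%, 16.9% to 49.3%) held Nr4a1. The highest level of all cells, 10891 TPM, was in an Ins Treg. Cluster 2 held it in 11 of 61 HIP (18.0%) and 2 of 25 Ins cells (8.00%), again with overlapping intervals. No cell of cluster 4 held it (0 of 21, so a share of up to 14.3% is allowed, the limit set by 3 cells). That limit lies under the upper end of the exact interval, 16.1%.

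Nr4a2 and Nr4a3 were rarer. Nr4a2 (chromosome 2, 57106830 to 57124003) was found in 9 of 184 HIP T cells (4.89%, 2.26% to 9.08%), 8 of them follicular helper cells, and in 0 of 236 Ins T cells, allowing a share of up to 1.27%. Of the 9 cells, 7 were follicular helper cells of 1 block, a run of 96 consecutive cell numbers. In that class its highest level was 431 TPM. Nr4a3 (chromosome 4, 48045078 to 48086447) was detected in 8 of 111 HIP follicular helper cells and 0 of 61 of the Ins sort, which allows up to 4.92%, with a highest level of 163.9 TPM. Both exact intervals, 3.16% to 13.7% and 0% to 5.87%, overlap. Outside that class Nr4a3 was detected in 2 of 61 HIP cells and 1 of 25 Ins cells of cluster 2, 3 of 115 Ins Tregs and 2 of 35 Ins dividing cells. Any of the 3 NR4A genes was detected in 24 of 111 HIP follicular helper cells (21.6%, 14.4% to 30.4%) and 3 of 61 Ins cells of that class (4.92%, 1.03% to 13.7%). These intervals do not overlap. The share was 27.1% and 15.4% by HIP block and 6.25%, 4.55% and 4.35% by Ins block, so both HIP blocks lay above every Ins block. Among all genes tested in this class, 8.25% had mean levels that lay above in the same way and 10.1% below. Those percentages are for mean levels of single genes, not for detection of any of 3 genes. Of the 3, Nr4a1 alone was detected in 10% of cells of either sort, and its block means overlapped. In Ins Tregs any NR4A gene was detected in 25.2% of cells (17.6% to 34.2%).

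EGR transcripts did not follow that pattern. Egr1, an immediate-early factor of the MAP kinase pathway, was detected in 10 of 111 follicular helper cells of HIP (9.01%, 4.41% to 15.9%) and 8 of 61 of Ins (13.1%, 5.84% to 24.2%). It was found in 29 of 115 Ins Tregs (25.2%, 17.6% to 34.2%), 12 of 35 Ins dividing cells (34.3%, 19.1% to 52.2%) and 12 of 61 HIP cells of cluster 2 (19.7%, 10.6% to 31.8%). Its highest level was 1580 TPM, in an Ins Treg. Egr2 (chromosome 10, 67534469 to 67542188) was detected in 11 of 111 follicular helper cells of HIP (9.91%, 5.05% to 17.0%) and 11 of 61 of Ins (18.0%, 9.36% to 30.0%), and reached 3529 TPM in HIP. In Ins Tregs it was found in 5 of 115 cells (4.35%, 1.43% to 9.85%), so the Treg class was among the higher groups for Egr1 and among the lower ones for Egr2. Egr3 (chromosome 14, 70077317 to 70082613), a close relative of Egr2, was seen in 0 of 184 T cells of the HIP sort, allowing a share of up to 1.63%, and in 3 of 236 of the Ins sort, at 33.6 TPM or less. Any EGR gene was detected in 14.4% (8.47% to 22.4%) and 24.6% (14.5% to 37.3%) of HIP and Ins follicular helper cells, with overlapping intervals. In cluster 4, Egr1 was found in 7 of 21 cells and Egr2 in 3 of 21.

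Cd69 (chromosome 6, 129267324 to 129275375) was found more often in follicular helper cells than in cluster 2 of the HIP sort. It was found in 34 of 111 HIP follicular helper cells (30.6%, 22.2% to 40.1%) and 6 of 61 HIP cells of cluster 2 (9.84%, 3.70% to 20.2%). In Ins the shares were 10 of 61 follicular helper cells (16.4%, 8.15% to 28.1%), 12 of 115 Tregs (10.4%, 5.51% to 17.5%) and 7 of 35 dividing cells (20.0%). Levels ranged from 0 to 4019 TPM in HIP and from 0 to 1692 TPM in Ins follicular helper cells, with a median of 0 in each. Cluster 4 held it in 13 of 21 cells (61.9%, 38.4% to 81.9%), more often than any T cell group of at least 9 cells.

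Tagap (chromosome 17, 7926000 to 7934897), a GTPase activator gene of activated T cells, had a share of 20.7% in the follicular helper class of HIP and 21.3% in that of Ins, 23.0% and 20.0% of cluster 2, and 9.57% of Ins Tregs. Its values are uncertain, because 47.6% of its transcript stretches of 50 bases also occur in the gene Tagap1. Of the Tagap1 stretches, 63.7% occur in Tagap. Tagap1 was detected in 47 T cells, 25 of which held Tagap as well. With the levels of both genes summed, the mean log2 level was 0.84 in Ins Tregs and 2.24 in Ins follicular helper cells. The summed level was detected in 1 of 9 HIP dividing cells. No stretch of that length was shared between the NR4A genes or between the EGR genes.

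Nfkbia (chromosome 12, 55489409 to 55492647) was detected in 46 of 61 cluster 2 cells of HIP (75.4%, 62.7% to 85.5%) and 13 of 25 of Ins (52.0%, 31.3% to 72.2%). Its level ranged from 0 to 13368 TPM in HIP with a median of 682.2 TPM, and from 0 to 4346 TPM in Ins with a median of 1.60 TPM. In follicular helper cells the shares were 57.7% in HIP (47.9% to 67.0%) and 45.9% in Ins (33.1% to 59.2%), with medians of 83.9 and 0 TPM. Ins Tregs held it in 74 of 115 cells (64.3%, 54.9% to 73.1%), with a median of 515.9 TPM. The highest T cell share among groups of at least 9 cells was 29 of 35 Ins dividing cells (82.9%, 66.4% to 93.4%), and cluster 4 held it in 19 of 21 cells. Tnfaip3 (chromosome 10, 19000910 to 19015410) was detected in 33.3% (24.7% to 42.9%) and 21.3% (11.9% to 33.7%) of HIP and Ins follicular helper cells, 34.4% and 32.0% of cluster 2, 34.3% of Ins dividing cells and 17.4% of Ins Tregs (11.0% to 25.6%). Ins Tregs had the lowest Tnfaip3 share of the T cell groups of at least 9 cells, with an interval that overlaps that of the next, Ins follicular helper cells.

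The sorts were then compared within the follicular helper class, which both sorts held in number. Differences are of mean log2(TPM + 1), HIP minus Ins, among the 5779 genes found in 10% of cells in at least 1 sort, and a difference of 1 or more in size is called past the fold. Of the 10 genes, 7 passed the filter, and 2 were past the fold, both higher in HIP. Of all genes tested, 2.08% were higher and 3.79% lower by that rule. Cd69 had mean levels of 294 ± 656 TPM (SD over cells) in HIP and 133 ± 356 in Ins, and differed by 1.22. Nfkbia had 665 ± 960.4 and 568 ± 1113 TPM and differed by 1.05. Tnfaip3 (0.94) and Nr4a1 (0.79) were higher in HIP without reaching the fold, and Egr1 (-0.42), Tagap (-0.44) and Egr2 (-0.48) were lower.

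Much of this difference came from 1 of the 2 HIP blocks. The mean log2 level of Cd69 was 3.68 in HIP block 1 and 1.58 in HIP block 3, beside 1.37, 1.75 and 1.28 in Ins blocks 2, 4 and 5. Nfkbia stood at 6.41 and 3.88 in HIP blocks 1 and 3 and at 6.20, 3.08 and 3.79 in Ins blocks 2, 4 and 5, so Ins block 2 was nearly as high as HIP block 1. Nr4a1 stood at 1.86 and 0.44 in HIP and 0.57, 0.31 and 0.40 in Ins, and Tnfaip3 at 3.50 and 1.52 in HIP and 0.38, 2.16 and 1.99 in Ins. None of the 7 genes that passed the filter had all HIP blocks above, or all below, the Ins blocks. Without block 1, Nfkbia turned to -0.29, and the 1 member past the fold was Egr2, lower in HIP (-1.09). Without block 3, Nfkbia (2.24), Cd69 (2.20), Tnfaip3 (1.87) and Nr4a1 (1.45) were all higher past the fold. Nfkbia also lay under the fold without block 4 (0.44) and without block 5 (0.82). Blocks each held 1 sort, so block and sort cannot be told apart. Genes detected had medians of 1775 in HIP block 1 and 2037 in HIP block 3. Its part in the members' values was not tested.

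**Figure D2:**
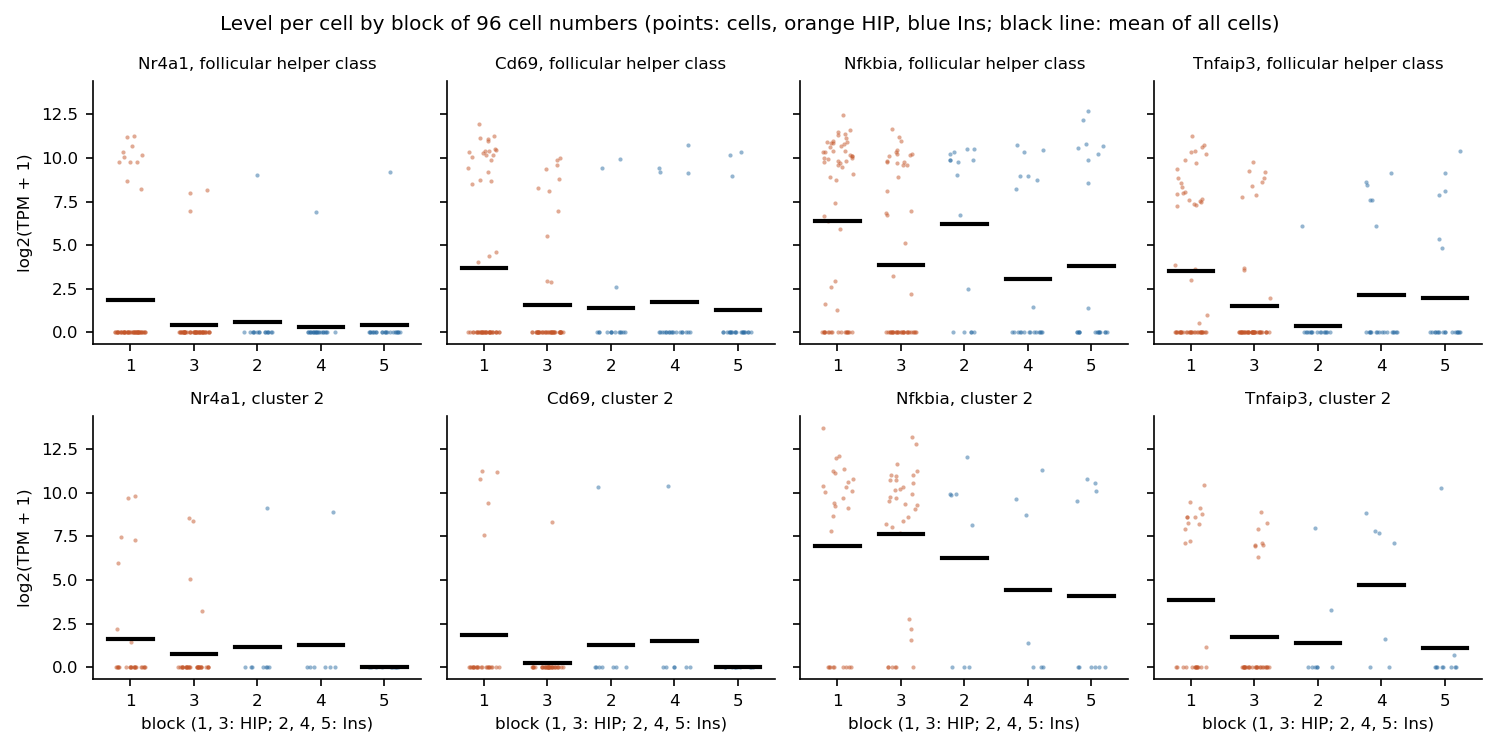
Level of Nr4a1, Cd69, Nfkbia and Tnfaip3 in each cell (y axis, log2(TPM + 1)) of the follicular helper class (top) and cluster 2 (bottom), by block of cell numbers (x axis; orange HIP, blue Ins), with the mean of all cells as a black line. Cells fall into a group at 0 and a group at high levels, and in the follicular helper class HIP block 1 has the highest mean for all 4 genes.

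In cluster 2, Nfkbia was higher in the HIP sort. Of the 10 genes, 6 passed the filter among 6079 tested, and 1 was past the fold, against 8.42% of all genes higher and 6.74% lower. Nfkbia averaged 1383 ± 2294 TPM in HIP and 657 ± 1032 in Ins, a difference of 2.44. Its mean log2 level was 6.96 and 7.61 by block for HIP and 6.25, 4.44 and 4.09 for Ins, so the sorts did not overlap in block means. Egr1 also lay above in both HIP blocks (1.49 and 1.51 against 1.06, 1.02 and 0), with a difference of 0.88. Of all genes tested, 9.99% lay above in this way and 7.21% below. Tagap (0.62), Tnfaip3 (0.46) and Nr4a1 (0.41) were higher and Egr2 (-0.46) lower, all with overlapping blocks. With any 1 of the 5 blocks left out, Nfkbia stayed past the fold, at 1.92 to 3.08. Other members passed it in some of these: Tnfaip3 without block 3 (1.62) or block 4 (1.44), Egr1 without block 2 (1.08) or block 4 (1.03), Tagap without block 1 (1.05), Cd69 without block 3 (1.03) and Egr2, lower, without block 5 (-1.17). Blocks of the Ins sort held 7 to 10 of these cells.

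In the dividing class the members were split between higher and lower in HIP, with 9 HIP cells only. Among 9539 genes tested, 7 members passed the filter and 4 were lower in HIP past the fold, against 10% of all genes lower and 17.2% higher. Nr4a1 was detected in 1 of 9 HIP cells and 11 of 35 Ins cells and differed by -1.96, and Egr1 in 1 of 9 and 12 of 35 (-1.33). Tagap was found in 0 of 9, allowing a share of up to 33.3%, and 7 of 35 (-1.24), and Nfkbia in 6 of 9 and 29 of 35 (-1.65). Egr2 (0.51), Cd69 (0.34) and Tnfaip3 (0.14) were higher in HIP. Of the Ins dividing cells with an NR4A gene, 8 of 11 were in block 2, where 53.3% of 15 cells held one, beside 10.0% and 20.0% in the other Ins blocks. Without block 2, Egr1 was lower (-1.06) and Egr2 higher (1.23) past the fold, and no other member was. Without block 3, which left 2 HIP cells, Nr4a1 stood at -0.83, Egr2 at -1.42, Cd69 at -1.38 and Tnfaip3 at 3.35. Tnfaip3 was lower in HIP without block 1 (-0.77) or block 5 (-0.33), and Egr2 without block 5 (-0.06). The dividing cells also differed in markers between the sorts. In HIP and Ins, Treg markers had mean sums of 667 and 1909 TPM, type 1 effector markers 1334 and 3041 TPM, and follicular helper markers 1490 and 1012 TPM. Their part in these differences was not tested.

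**Figure D3:**
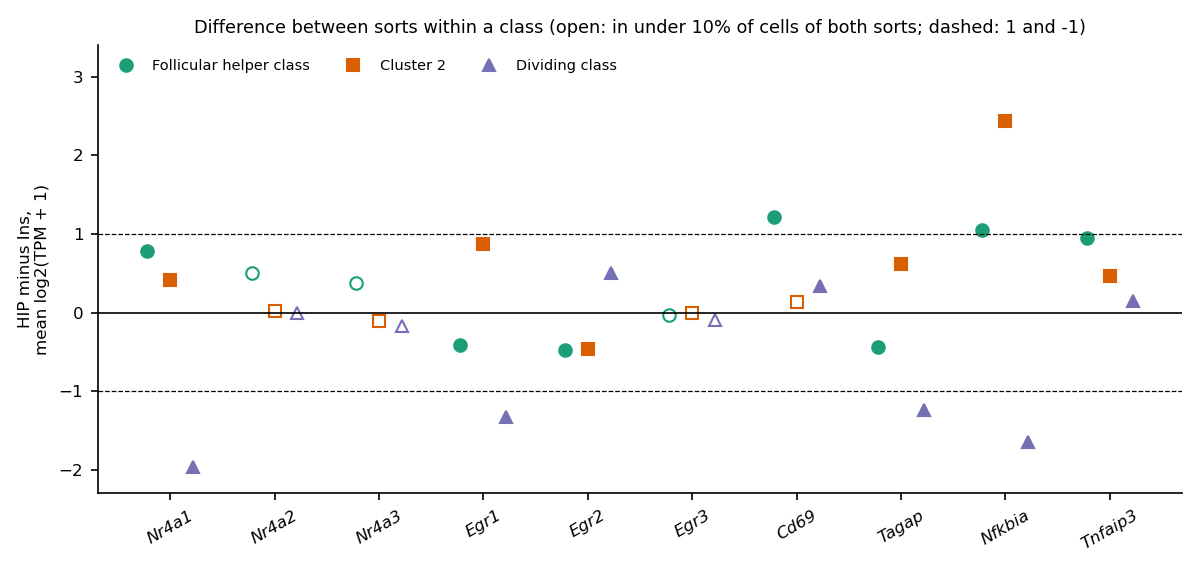
Difference in mean log2(TPM + 1), HIP minus Ins (y axis), of each gene (x axis) in the follicular helper class (circles), cluster 2 (squares) and dividing class (triangles). Open symbols mark genes in under 10% of cells of both sorts and dashed lines the fold. Nfkbia stands at 1.05, 2.44 and -1.65 in the 3 classes.

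Classes came from clustering on these same values, and differences between them are descriptions. In the HIP sort, cluster 2 exceeded the follicular helper class in Nfkbia (2.10) and lay lower in Cd69 (-1.73). The Nfkbia difference was 0.55 without block 3 and 3.73 without block 1, while Cd69 stayed at -1.81 and -1.34. Without block 3, Egr2 was also lower past the fold (-1.14). Of 5835 genes tested, 8.57% were higher and 2.78% lower by the fold. In the Ins sort, Tregs exceeded follicular helper cells in Nfkbia (1.93) and Nr4a1 (1.61) and lay lower in Tagap (-1.15, or -0.96 without block 4), while Egr1 differed by 0.96 and Egr2 by -0.97. Among 6061 genes, 9.01% were higher and 4.34% lower. Ins dividing cells exceeded Ins Tregs by the fold in Egr2 alone (1.03, but 0.46 without block 2 and 0.96 without block 4), beside 42.3% of 8150 genes that were higher and 0.896% lower in dividing cells, which held more detected genes. The median difference of the 7 members that passed the filter there was 0.54, and that of all tested genes 0.80.

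Cells carried few of the 10 transcripts at a time. The mean number per cell was 1.88 ± 1.56 (SD over cells) in HIP and 1.43 ± 1.36 in Ins follicular helper cells, 1.59 ± 1.34 in Ins Tregs, 1.92 ± 1.22 and 1.44 ± 1.56 in HIP and Ins cells of cluster 2, and 1.78 ± 0.833 and 2.51 ± 1.74 in the dividing class. In follicular helper cells, 25 of 111 from HIP and 16 of 61 from Ins held none of the 10. At least 3 were present in 31.5% (23.0% to 41.0%) and 16.4% (8.15% to 28.1%) of HIP and Ins follicular helper cells, and in 49.2% of HIP block 1 but 11.5% of HIP block 3. In cluster 2 these shares were 32.8% in HIP (21.3% to 46.0%) and 8.00% in Ins (0.984% to 26.0%), with overlapping intervals. Ins dividing cells reached 42.9% (26.3% to 60.7%) and Ins Tregs 16.5% (10.3% to 24.6%).

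**Figure D4:**
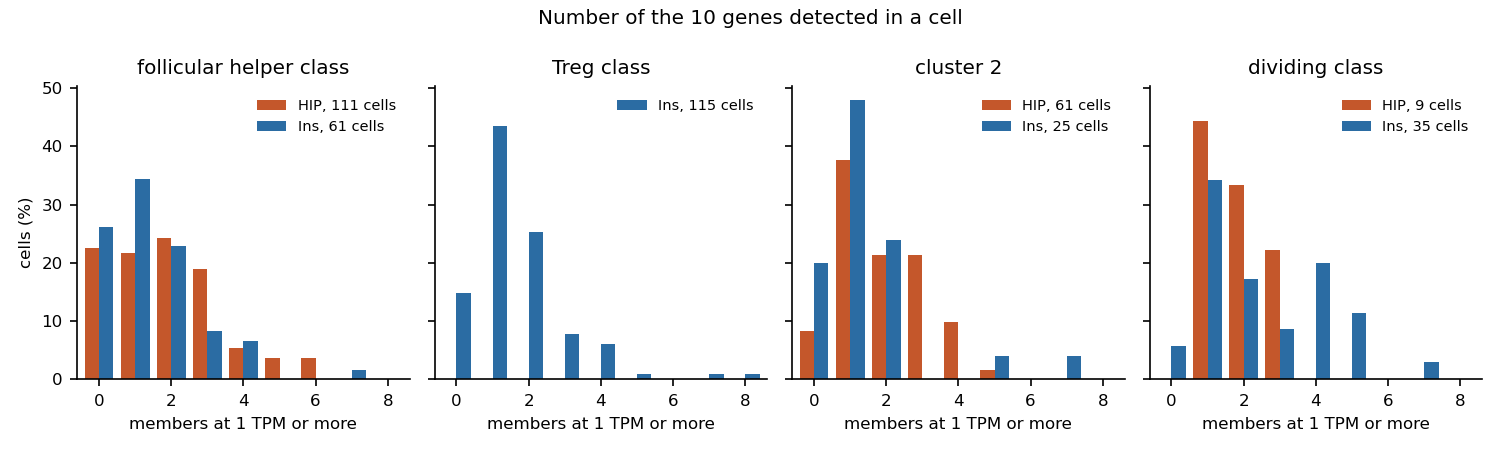
Share of cells (y axis, percent) with each number of the 10 genes at 1 TPM or more (x axis) in 4 classes, HIP in orange and Ins in blue. In the follicular helper class 31.5% of HIP and 16.4% of Ins cells held 3 or more.

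Of the T cells, 5 held 7 or more of the 10 transcripts, and all 5 were from the Ins sort. They were 2 Tregs, 1 dividing cell, 1 cell of cluster 2 and 1 follicular helper cell. The Treg with 8 held Nr4a1 at 7559 TPM, Cd69 at 2902 TPM, Nfkbia at 1518 TPM, Tnfaip3 at 534.8 TPM, Egr1 at 426.2 TPM and Nr4a3 at 119.1 TPM, with 2103 genes detected. The Treg with the highest Nr4a1 (10891 TPM) also had the highest Egr1 of any cell (1580 TPM), with Egr2 at 1089 TPM, Tagap at 1237 TPM and Nfkbia at 4347 TPM, but Cd69 at 4.7 TPM and no Tnfaip3. The cell of cluster 2 held 7 members, among them Egr2 at 1493 TPM and Cd69 at 1345 TPM, with Nfkbia listed at 0. Cells with many members thus differed in which of them they held.

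Members were found together more often than their separate shares would give. For each pair, cells holding both were counted in the 417 T cells of the 7 class-and-sort groups of at least 9 cells, beside the product of both shares summed over groups. Of 23 pairs with a product of 5 cells or more, 22 were found together in more cells than the product. Among all gene pairs with such a product 66.3% were. The ratio of observed cells to product had a median of 1.36 over the 23 pairs (0.943 to 2.68) and 1.05 over all gene pairs. Egr1 and Egr2 shared 20 cells beside a product of 7.45, Nr4a1 and Egr2 16 beside 6.64, and Nr4a1 and Egr1 26 beside 14.9. Cd69 shared 20 cells with Nr4a1 (product 11.4), 21 with Egr1 (11.4) and 16 with Egr2 (8.39). Nfkbia, which most cells held, lay closer to its products: it shared 51 cells with Nr4a1 (46.6), 82 with Tnfaip3 (72.1) and 46 with Egr1 (48.8), the 1 pair below its product. With the product taken separately for cells of fewer and of more detected genes in each group, 23 of 24 pairs lay above it, and with the product taken within each class and block 22 of 24.

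**Figure D5:**
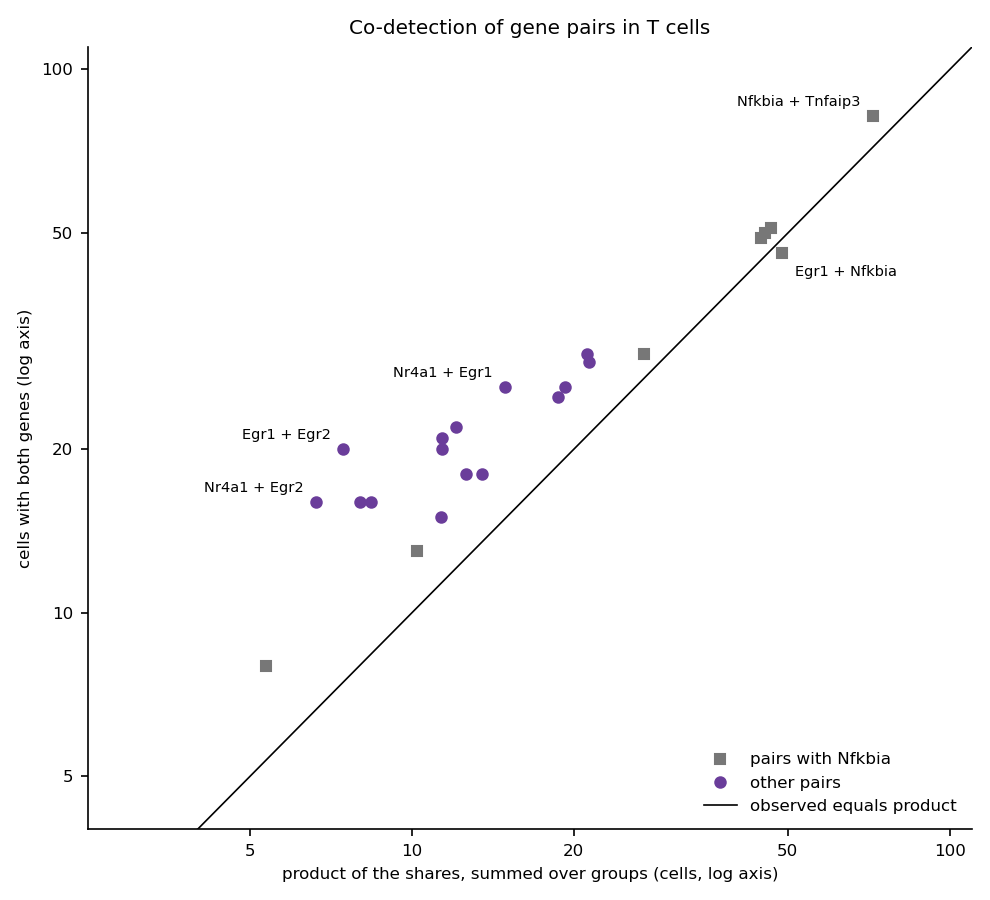
Cells with both genes (y axis, log scale) against the product of both shares summed over class-and-sort groups (x axis, cells, log scale) for the 23 gene pairs with a product of 5 or more, with the line of equality. Pairs without Nfkbia (circles) lie above the line, and Egr1 with Nfkbia is the pair below it.

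Over all 420 T cells, Egr1 was found in 26 of the 71 cells with Nr4a1 (36.6%, 25.5% to 48.9%) and in 48 of the 349 without it (13.8%, 10.3% to 17.8%). Egr2 was found in 22.5% (13.5% to 34.0%) and 8.02% (5.40% to 11.4%) of the same cells. Cd69 followed with 28.2% (18.1% to 40.1%) and 15.2% (11.6% to 19.4%), where the intervals just overlap. Cells with and without Egr1 held Nfkbia at nearly equal shares, 62.2% and 62.7%. Cells with Egr2 held Egr1 in 20 of 44 cases (45.5%, 30.4% to 61.2%) and cells without it in 54 of 376 (14.4%). All these shares pool classes and sorts, which differ in how often they held the members. Genes detected had medians of 2237 with and 2030 without Nr4a1, 2090.5 and 2043 for Egr1, and 2407.5 and 2040.5 for Egr2. The part of class, sort and genes detected in these shares was not tested.

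The other genes of the pathway were described through lists, given as the count of members that passed the same filter. These lists too were chosen with earlier results of these data known, so their counts are descriptions. In follicular helper cells, the list of AP-1 and immediate-early genes, which mark both receptor signalling and handling stress, had 14 of 25 members past the filter. Of these 9 were higher and 5 lower in HIP, 6 of them higher past the fold, with a median difference of 0.54 beside -0.06 over all genes. Those 6 lay above in every HIP block. Of all genes tested in this class, 2.08% were higher past the fold and 8.25% above in every block. The largest were Dusp1 (3.81), the integrated stress response gene Ppp1r15a (3.50), Junb (3.35) and Fos (2.15). In cluster 2, 7 of 15 were higher past the fold, led by Junb (3.46), Rgs1 (3.22), Dusp1 (3.20) and Zfp36 (2.01), and 1 lower, Zfp36l1 (-1.65), with a median of 0.79, beside 8.42% of all genes higher and 6.74% lower. In the dividing class 8 of 17 were lower past the fold and 0 higher, beside 10% and 17.2% of all genes. The list mean over HIP and Ins blocks of the follicular helper class was 2.07 and 1.70 against 1.28, 1.28 and 1.18, and that of the 10 members 2.06 and 0.97 against 1.34, 1.10 and 1.19.

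Other receptor response genes were mixed. Past the fold, 2.08% of all genes tested were higher and 3.79% lower in follicular helper cells, and 8.42% and 6.74% in cluster 2. In follicular helper cells 20 of 32 passed the filter, with 2 higher past the fold (the transcription factor gene Bhlhe40, 1.46, and the adhesion receptor gene Cd44, 1.16) and 3 lower, Cd83 (-1.35), Tnfsf8 (-1.02) and the NFAT gene Nfatc1 (-1.001), and a median of 0.27. Of 25 NF-kB subunits, inhibitors and targets that passed, 2 were higher, the atypical IkB genes Nfkbid (1.15) and Nfkbiz (1.03), and 1 lower, the kinase gene Ikbkb (-1.18), with a median of -0.01. In cluster 2, 24 genes of this list passed, with 4 higher and 4 lower past the fold and a median of 0.14. Of these, Nfkbib (1.21) and Rel (1.18), an NF-kB subunit that T cells induce on activation, were higher. Rel was detected in 19.7% of HIP cells and 0 of 25 Ins cells, allowing a share of up to 12.0%. Traf3 (-1.27) and Nfkb2 (-1.24) lay lower there. Of 22 proximal receptor signalling genes in follicular helper cells, 0 were higher and 1 lower past the fold, the paracaspase gene Malt1 (-1.44), with a median of -0.12. In cluster 2, 5 of 23 were higher past the fold, the zeta chain gene Cd247 (2.53), Zap70 (1.76), Lat (1.54), Cd28 (1.50) and Prkcq (1.44), with a median of 0.43. Blocks of the sorts overlapped there for Nfkbib, Cd247, Zap70 and Lat. Of the 23, 4 lay above in every HIP block and 3 below, beside 9.99% and 7.21% of all genes tested. Anergy and inhibitory genes linked to EGR and NR4A factors split in follicular helper cells, with 2 of 15 higher, Tox2 (1.55) and Ctla4 (1.17), and 3 lower: Nt5e (-2.06), Lag3 (-2.01) and Folr4 (-1.28). In follicular helper cells, blocks of the sorts overlapped for Cd44, Tnfsf8, Ikbkb, Malt1, Tox2 and Folr4. Bhlhe40, Nfkbid and Nfkbiz lay above in every HIP block, and Cd83, Nt5e and Lag3 below. Of all genes tested in this class, 8.25% lay above in this way and 10.1% below. In cluster 2, 18 other receptor response genes passed, with 3 higher and 2 lower past the fold. Ifng (1.38) and Ccl4 (1.18) were higher there, but Cd44 (-1.38) and Tnfsf8 (-1.18) lower. Of 17 anergy and inhibitory genes that passed there, 2 were higher and 3 lower past the fold. Dgkz (1.49) was higher, and Dgka (-1.26), Nt5e (-1.21) and Tox2 (-1.18) lower. Of these named genes, only Cd44 lay apart by block, below in every HIP block. Nfatc1, Ctla4, Prkcq and Zfp36l1 were outside the naming rule and were singled out after their values were seen.

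Genes whose level moved most like a member's were named by Pearson r over the 420 T cells, after each class-and-sort mean was taken off, among 5367 candidate genes. All values were weak and are no more than a description of sparse data from shared libraries. The closest non-member genes were Ppp1r15a (0.25), Rel (0.22) and Fos (0.19) for Tnfaip3, Pim1 (0.25), Cd83 (0.24) and Ier2 (0.23) for Nfkbia, and Ier2 (0.24), Ap2b1 (0.23) and Il10 (0.23) for Egr1. For Nr4a1 they were Purb (0.21), Plk3 (0.20) and Ptpn22 (0.20), for Egr2 Rgs16 (0.24), Seh1l (0.20) and Angptl2 (0.20), for Cd69 Tnfrsf18 (0.19), Dynlt1b (0.18) and Htra2 (0.17), and for Tagap Rbm17 (0.23), Kat2a (0.20) and Tagap1 (0.20), which shares sequence with it.

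Transcripts listed as markers of other cell types were present beside these results. In follicular helper cells at least 1 islet hormone gene was present in 16.2% and 8.20% of HIP and Ins cells, at least 1 endothelial marker in 22.5% and 21.3%, and at least 1 B cell marker in 1.80% and 4.92%. Acinar markers were present in 8.11% and 3.28% of these cells, with mean sums of 180 and 23.1 TPM. At least 1 antibody-secreting cell marker, a list with Xbp1, Prdm1 and Irf4, which T cells also express, was present in 33.3% and 47.5%. At least 1 myeloid marker was seen in 0 of 111 HIP follicular helper cells, allowing up to 2.70%, and in 3.28% of those from Ins. Of the 2 endothelial markers, 1 was undetected in each of these follicular helper groups, so each endothelial share rests on 1 gene. Endothelial markers were detected in 0 of 115 Ins Tregs, allowing up to 2.61%. In cluster 2, HIP and Ins cells held islet hormone genes in 11.5% and 8.00%, acinar markers in 6.56% and 4.00%, endothelial markers in 6.56% and 4.00%, and antibody-secreting cell markers in 65.6% and 56.0%. B cell and myeloid markers reached 1 TPM in none of the cluster 2 cells. In the dividing class the shares were 11.1% and 25.7% for islet hormone genes, 11.1% and 14.3% for acinar, 33.3% and 17.1% for endothelial and 55.6% and 80.0% for antibody-secreting cell markers. CD8 and NK markers were present in 33.3% of HIP and 23.0% of Ins follicular helper cells, with mean sums of 34.4 and 29.0 TPM. Their shares were 36.1% and 12.0% in cluster 2, and 44.4% and 28.6% in the dividing class. Ins Tregs held islet hormone genes in 18.3% and acinar markers in 8.70% of cells, with a mean acinar sum of 535 TPM. The part of all these transcripts in the members' values was not tested.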

How the data were processed

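Single CD4 T cells of 2 tetramer sorts were read by SMART-Seq2, per the labels' protocols. The submitters' processing notes name TopHat, Bowtie, RSEM 1.2.8 and mm10, with no role for each. The deposited expression table holds natural log values: exp(value) minus 1 summed to 100000 in each of the 441 cells, so each value was read as the natural log of TPM divided by 10, plus 1, and turned back to TPM. The design had assumed plain TPM values. The authors' deposited cell table gives each cell's class and gene number. Classes matched the labels in 441 of 441 cells, and the same 441 had as many values above 0 as their gene number. Even Gapdh (29 cells) and Actb (1 cell) had values of 0, so a 0 may be a missed transcript. TPM keeps no read depth, so the depth of each cell is unknown and genes detected per cell stand in for it.

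Levels were means of log2(TPM + 1), and a gene was detected at 1 TPM or more. Differences were taken within a class over genes detected in 10% of cells of either group, and a gene was past the fold at a difference of at least 1, up or down. Blocks are runs of 96 cell numbers in the sample names, blocks 1 and 3 HIP and blocks 2, 4 and 5 Ins, and are used only to show spread. Block and sort cannot be told apart. Co-detection was compared with the product of shares within class and sort, and with the product within class and block, an alternative chosen after seeing the data. Classes are the authors' annotation, and no doublet caller was run. Scripts (Python 3.11.15, numpy 2.4.6, pandas 2.3.3, scipy 1.17.1, matplotlib 3.10.9) were tested on simulated data. Sequences and positions come from RefSeq tables (GRCm38.p6).

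The members and the gene lists were chosen with earlier results of these data known. All 10 members are named. From each list, up to 4 genes per comparison with the largest difference between sorts are named, and, for each member detected in 10% of T cells, the 3 non-member genes of highest Pearson r. Il2, Egr4, Fosl1, Otulin, Trac, Pax5, Ncr1, C1qa, Csf1r and Kdr were not analysed here. The result of a list of heat shock and dissociation genes is not reported here.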

Additional observations from a re-analysis of the deposited data

Results flagged for a closer look

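Nfkbia differed between sorts in opposite directions in different classes. HIP minus Ins in mean log2(TPM + 1) was 1.05 in the follicular helper class and 2.44 in cluster 2, but -1.65 in the dividing class, where the HIP sort had only 9 cells. The difference between the classes was not tested, since each sort is 1 sample.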

How the results depend on the processing

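The limits are 1 sample per sort, no read depth in TPM, and few HIP dividing cells. With a pseudocount of 10 TPM, the members past the fold between sorts went from 2 to 0 in follicular helper cells and from 4 to 2 in dividing cells. With the same pseudocount they went from 3 to 1 for Ins Tregs against follicular helper cells and from 1 to 0 for Ins dividing cells against Tregs. With detection in 25% of either group, those last comparisons gave 1 and 0. With blocks weighted equally they gave 5 and 0. In cells of a shared range of genes detected, 1 member was past the fold between sorts in follicular helper cells and 5 for Ins Tregs against follicular helper cells. Leaving out 1 block at a time gave 1 to 4 members between sorts in follicular helper cells, 2 to 3 in cluster 2 (1 with all blocks) and 2 to 6 in dividing cells. It gave 2 to 4 for HIP cluster 2 against follicular helper cells (1 higher and 1 lower with all blocks, 0 higher and 2 lower without block 3), 3 to 4 for Ins Tregs against follicular helper cells and 0 to 1 for Ins dividing cells against Tregs. Without block 1, the Nfkbia difference in follicular helper cells was -0.29, and it was 2.24 without block 3. Members detected per cell at 100 TPM averaged 1.18 in Ins follicular helper cells, 1.64 in HIP cluster 2, and 0.889 and 1.60 in HIP and Ins dividing cells. At 1 TPM, HIP dividing cells averaged 1.71 to 2.00 members with 1 block left out, beside 1.78 with all. The causes were not tested. Of 101 other-setting values for these counts and means, 75 stayed within 1.5 times the count or 1 SD of the block means. Of the 924 values for single members (differences and shares), 862 stayed within the spread of block means or the exact interval. Of the 394 differences among these, 27 had the other sign, 26 of them for members that were under the fold. Blocks 1 and 3 are the only HIP blocks, so leaving out either gives the value of the other. Staying within the spread of block means therefore says little about how values depend on blocks. Without block 1, the Cd69 difference in follicular helper cells fell from 1.22 to 0.11. Pairs of members found together above the product of their shares were 21 of 22 at 10 TPM and 22 of 24 within class and block. No paired analysis was possible because no number in the labels pairs cells across sorts and no test was run.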
